A study of Drosophila melanogaster with 6 samples.

Results

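Small heat shock proteins and chaperones were followed in ovaries of Drosophila melanogaster through 9 genes: the small heat shock protein genes Hsp22, Hsp23, Hsp26, Hsp27 and Hsp67Bc, the Hsp90 gene Hsp83, the Hsp70 genes Hsc70-3 and Hsc70-4, and Stip1, which the deposited tables list under its older name Hop. The genes were taken by name, with letter case kept so that Hop was not joined to the unrelated gene hop, and each was represented by its brightest row over the arrays, where a row is 1 RefSeq transcript. All 9 were measured, among 13690 genes in all.

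Total RNA from ovaries was labelled with biotin and hybridized to 6 tiling arrays, 3 labelled uap56 and 3 labelled vasa. The groups are named for UAP56, an RNA helicase of mRNA processing and export encoded by Hel25E, and for Vasa, a germline RNA helicase encoded by vas. The labels give neither alleles nor ages. No group labelled as a control is part of the comparison. It therefore sets uap56 directly against vasa and does not tell which of the groups moved. Both groups share the same handling in the labels: flies kept at 25 °C on cornmeal food, adults fed wet yeast paste, and ovaries dissected in Robb's medium. The values are linear intensities that the authors summarised and normalized. They are not scaled to transcript length, so no level is compared between genes. Differences are log2 of the uap56 value minus log2 of the vasa value. The labels do not say whether replicates came from separate dissections, and the p-values therefore measure the spread between these arrays, which may be technical.

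Heat shock proteins bind unfolded proteins and keep them from aggregating. Small heat shock proteins hold such clients without using ATP, while the Hsp70 and Hsp90 families fold them in ATP-driven cycles steered by co-chaperones. In the fly, several of these genes are switched on by heat through heat shock factor, but Hsp26, Hsp27 and Hsp83 are also transcribed in nurse cells of unstressed ovaries, and Hsp90 with its co-chaperones takes part in loading small RNAs into Argonaute proteins. Stip1, also called Hop, bridges Hsp70 and Hsp90, and in the fly it has been found in a complex with Piwi and Hsp90.

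The arrays held the tissue named in the labels. The vas signal was 1364 to 2045 on uap56 arrays, against 242.2 to 383 on vasa arrays, and Hel25E was 1042 to 1617 on uap56 arrays, against 1416 to 1800 on vasa arrays, so the label check was clear for vas alone. Germline markers (10 genes) summed to 13906 to 17501 on uap56 arrays, against 14806 to 18059 on vasa arrays, and follicle cell markers (10 genes) to 81394 to 103055 on uap56 arrays, against 80859 to 95652 on vasa arrays. In each case the ranges overlapped. Of the germline markers, nanos passed the test, with a log2 difference of 0.69 (adjusted p = 0.0171 in the limma fit). The list's median was -0.30, with 6 of 10 genes below 0. An unadjusted p under 0.05 was found for 5 of 10 (nanos among them), against 18.2% of all genes. The 4 others at that level had negative differences, of -0.53 for osk, -0.49 for orb, -0.53 for otu and -0.48 for aub, and grk stood at -0.65, with adjusted p of 0.142 to 0.317 in limma for these 5 genes. The part of germline RNA in the chaperone values was not tested. None of the follicle cell markers passed (lowest adjusted p = 0.240 in limma, with 1 of 10 at an unadjusted p under 0.05), and tj (-0.36) and Yp3 (0.35) had the largest differences. RNA from whole ovaries cannot tell fewer cells of a type from less RNA per cell.

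Among the 9 genes, 1 differed between the groups past an adjusted p of 0.05 in limma, fitted over all genes with the variance prior following intensity, and it was lower in uap56 ovaries. This was Stip1. Over all genes, 3.83% passed the same threshold, 1.35% with a lower and 2.48% with a higher value in uap56, so that 64.8% of the genes that passed were higher in uap56. This share was 52.2% after quantile normalization, and the balance turned without uap56 replicate 2, when 40% of the 70 genes that passed were higher in uap56. An unadjusted p under 0.05 was found for 3 of the 9 genes and for 18.2% of all genes. Of the 8 others, Hsp22 and Hsp26 were higher on every uap56 array than on every vasa array but missed the threshold, and the remaining 6 had overlapping groups. The groups did not overlap for 3 of the 9 genes, and for 23.5% of all genes (13.5% higher and 10.0% lower in uap56). The median log2 difference was -0.08 over the 9 genes, 3 above and 6 below 0, and 0.02 over all genes.

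**Figure D1:**
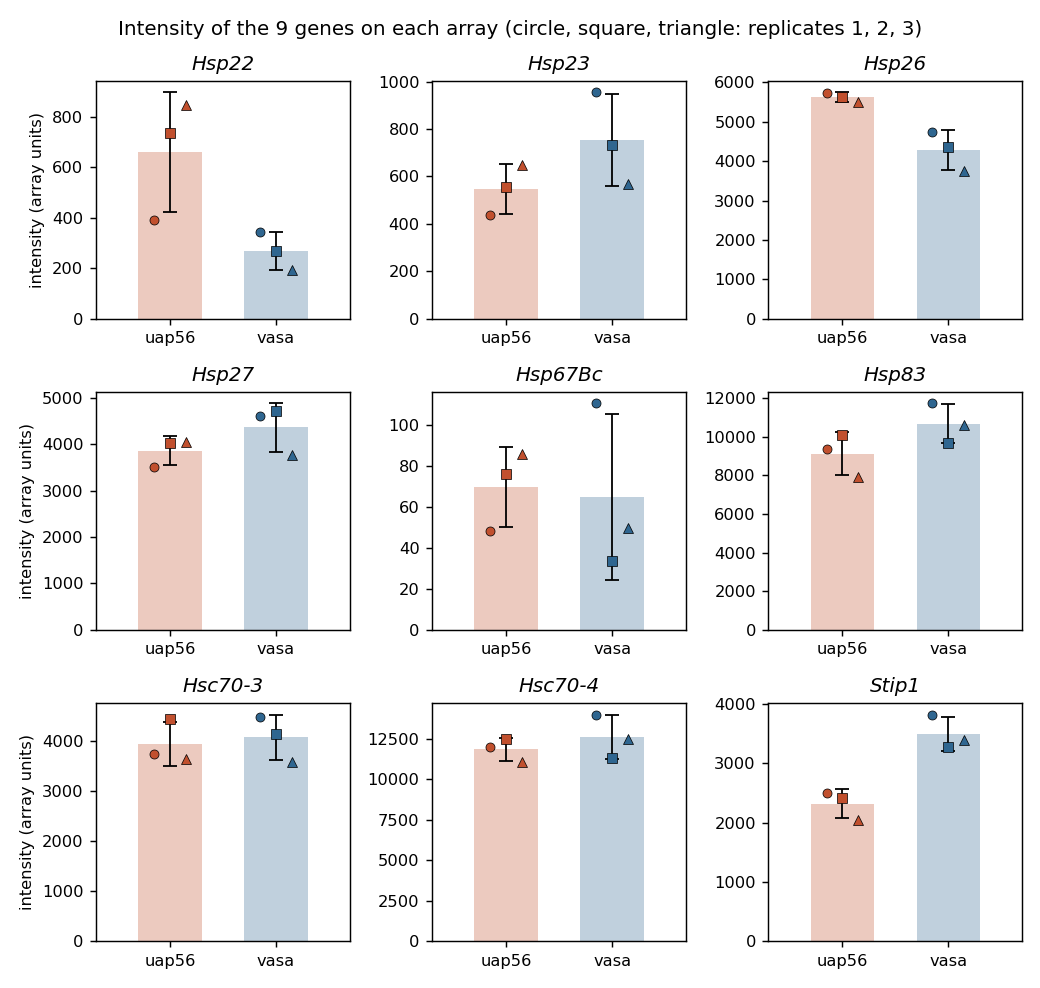
Intensity (array units, linear axis from 0) of each of the 9 genes, with uap56 on the left and vasa on the right of each panel. Points are arrays (circle, square and triangle for replicates 1, 2 and 3), bars are group means and error bars SD over 3 arrays. The uap56 and vasa points are apart for Hsp22, Hsp26 and Stip1, and overlap for the other genes.

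Stip1 encodes the co-chaperone that passes clients between Hsp70 and Hsp90. Its intensity was 2495, 2418 and 2043 on the uap56 arrays, against 3827, 3286 and 3392 on the vasa arrays. Every uap56 array lay below every vasa array, and within either group the arrays stood close together, with the highest over the lowest at 1.22 in uap56 and 1.16 in vasa. The means were 2319 ± 242 in uap56 and 3501 ± 287 in vasa (SD, n = 3 each). The log2 difference was -0.60 ± 0.13 (SE), which is 0.661 of the vasa level with a 95% interval of 0.538 to 0.813. The adjusted p was 0.0417 in the trend fit of limma and 0.216 with a single variance prior, where 0 of the 9 genes (2 at an unadjusted p under 0.05) and 0.0146% of all genes passed. It ranged from 0.0138 to 0.216 over 16 alternatives, of which 8 kept the call. None of the 6 fits that left out 1 array kept it, with adjusted p from 0.0558 to 0.133 in limma, while the difference stayed between -0.65 and -0.51 in them.

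The genes with the profile most like that of Stip1 over the 6 arrays were Atx2, emb, HnRNP-K, tyf and Glos. Likeness was measured as the root mean square distance between log2 profiles centred on their means, and it was 0.0370 for Atx2 and 0.0538 for Glos on the log2 scale. Of these 5, tyf passed the threshold, with a log2 difference of -0.67 (adjusted p = 0.0327 in limma), and the others had adjusted p of 0.0664 to 0.151 in limma. With 6 arrays in 2 groups, such a likeness mostly records the same difference between the groups.

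Hsp83 encodes the cytosolic Hsp90 with which Stip1 works. It stood at 9368, 10103 and 7918 on the uap56 arrays, against 11734, 9710 and 10623 on the vasa arrays. The groups overlapped through uap56 replicate 2 and vasa replicate 2. Its log2 difference was -0.23 ± 0.13 (SE), with a 95% interval of -0.52 to 0.06 and an adjusted p of 0.390 in limma, so the arrays do not place Hsp83 higher or lower in uap56, and the interval reaches from a clear decrease to a slight increase. Over 16 alternatives the difference ran from -0.32 to -0.13 and the adjusted p from 0.0606 to 0.661 in limma, with 0 calls. The lowest adjusted p came after quantile normalization, with a difference of -0.32.

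Hsc70-4, the main constitutive Hsp70 of the cytosol, had 11970, 12512 and 11078 on the uap56 arrays, against 14004, 11293 and 12499 on the vasa arrays. The groups overlapped, with vasa replicate 1 above every uap56 array. The log2 difference of -0.08 had a 95% interval of -0.34 to 0.17 (adjusted p = 0.767 in limma). Its 6 transcript rows gave differences from -0.10 to -0.08, and a pair of them held identical values on every array, so the rows are no independent measurements of the gene.

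Hsc70-3 encodes BiP, the Hsp70 of the endoplasmic reticulum and a classical target of the unfolded protein response. It stood at 3746, 4449 and 3656 on the uap56 arrays, against 4495, 4158 and 3594 on the vasa arrays. The groups covered the same range. For the gene as a whole, the log2 difference was -0.05 with a 95% interval of -0.35 to 0.26 (adjusted p = 0.902 in limma), and the 4 transcript rows lay between -0.06 and -0.04. Its sign turned when uap56 replicate 3 or vasa replicate 1 was left out, to 0.01 and 0.03.

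**Figure D2:**
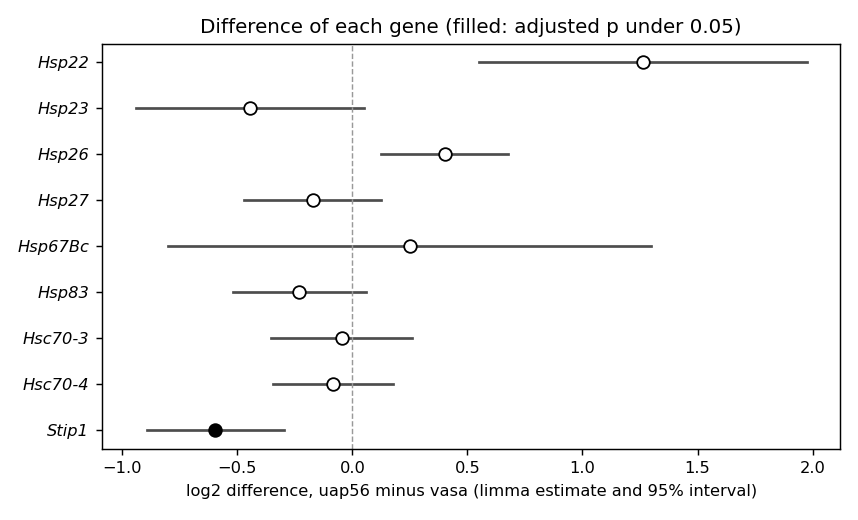
Log2 difference, uap56 minus vasa, of the 9 genes, with the limma estimate as a point and its 95% interval as a line. Stip1 alone (filled) passed an adjusted p of 0.05. The intervals of Hsp22 and Hsp26 lie above 0 before adjustment over all genes, and those of the other 6 genes include 0.

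Hsp22 encodes a small heat shock protein of the mitochondrial matrix and had the largest difference of the 9 genes. Its intensity was 392, 736 and 848 on the uap56 arrays, against 343, 269 and 192 on the vasa arrays. The groups did not overlap, but uap56 replicate 1 lay near vasa replicate 1. The means were 659 ± 238 in uap56 and 268 ± 75.3 in vasa (SD, n = 3 each). The log2 difference was 1.26 ± 0.31 (SE), which is 2.40-fold with a 95% interval of 1.46 to 3.93 and an adjusted p of 0.0661 in limma. Over 16 alternatives the adjusted p ranged from 0.0144 to 0.228 and 3 of them called Hsp22, namely the fit without uap56 replicate 1 (1.60, adjusted p = 0.0144), that over genes above the 25th percentile of intensity (adjusted p = 0.0413) and that with a pseudocount of 16 (adjusted p = 0.0488), all in limma.

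A second transcript row of Hsp22 had a difference of 0.94 (adjusted p = 0.129 in limma over all rows). Its values were the same on every array as those of a row of the adjoining gene CG4456, also known as Hsp67Bb, so this row cannot be assigned to one gene. Hsp22 was lowest on replicate 1 among the uap56 arrays and on replicate 3 among the vasa arrays. The same held for 7 of 8 markers of the muscle sheath that surrounds the ovary, such as Mhc, the myosin heavy chain (234.0, 548 and 556 on uap56 arrays, against 469, 359 and 195 on vasa arrays), for Hsp23 and Hsp27 too, and for 12.0% of all genes. Between the groups, 0 of the 8 muscle markers passed in limma and 0 had an unadjusted p under 0.05, their summed intensity was 9237 to 12096 on uap56 arrays, against 9706 to 11076 on vasa arrays, and none was at the floor of 1. Act57B and bt held most of each sum, and bt was the marker not lowest on uap56 replicate 1 and vasa replicate 3. The largest differences were those of Prm (0.65) and wupA (0.46). The part of muscle RNA in the Hsp22 values was not tested.

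Hsp26 is a small heat shock protein gene of the cytosol that nurse cells transcribe without heat. Its intensity was 5743, 5643 and 5508 on the uap56 arrays, against 4735, 4371 and 3744 on the vasa arrays. The uap56 arrays were within 1.04-fold of each other and all lay above the vasa arrays, which spread over 1.26-fold. This gave a log2 difference of 0.40 ± 0.12 (SE), or 1.32-fold with a 95% interval of 1.09 to 1.60. The adjusted p was 0.114 in limma and 0.0719 to 0.358 over 16 alternatives, none of which called the gene.

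Hsp27 is likewise transcribed in nurse cells, and its product is found partly in the nucleus. It had 3500, 4027 and 4040 on the uap56 arrays, against 4597, 4711 and 3764 on the vasa arrays. A single vasa array, replicate 3, fell within the range of the uap56 arrays. Its log2 difference of -0.17 had a 95% interval of -0.47 to 0.13 (adjusted p = 0.553 in limma).

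Hsp23, a cytosolic member that also responds to ecdysone, stood at 439, 554 and 649 on the uap56 arrays, against 955, 733 and 570 on the vasa arrays. The groups overlapped through vasa replicate 3. The log2 difference was -0.45 ± 0.22 (SE) with a 95% interval of -0.94 to 0.05 (adjusted p = 0.332 in limma).

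Hsp67Bc encodes the fly relative of human HSPB8 and works with the BAG-domain protein Starvin in the clearance of misfolded proteins. Its signal was weak, at 48.0, 75.9 and 85.7 on the uap56 arrays, against 110.4, 33.7 and 49.9 on the vasa arrays. The vasa arrays alone spread over 3.27-fold and enclosed the uap56 arrays. The log2 difference of 0.25 had a 95% interval of -0.80 to 1.30 (adjusted p = 0.838 in limma) and turned to -0.13 without vasa replicate 2, so no direction is given.

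The 5 small heat shock genes lie together on chromosome arm 3L, in the order Hsp67Bc, CG4456, Hsp22, CG4461, Hsp26, Hsp67Ba, Hsp23 and Hsp27 among the genes measured. The differences did not run one way along the cluster. From Hsp67Bc to Hsp26 the 5 values were 0.25, 0.94, 1.26, 0.44 and 0.40, and from Hsp67Ba to Hsp27 the 3 values were -0.34, -0.45 and -0.17. None of these 8 genes passed the test in limma (lowest adjusted p = 0.0661, for Hsp22), and 3 had an unadjusted p under 0.05, namely CG4456, Hsp22 and Hsp26. The CG4456 values are also those of the second Hsp22 row, cannot be assigned to either gene, and so do not count as a separate measurement. Of the 33 other genes among the 3 nearest on either side of each of the 9 genes, 0 passed in limma, 6 (18.2%) had an unadjusted p under 0.05, against 18.2% of all genes, and the groups did not overlap for 9 (27.3%), against 23.5% of all genes. CG4456 was counted among the 33, the 6 and the 9.

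**Figure D3:**
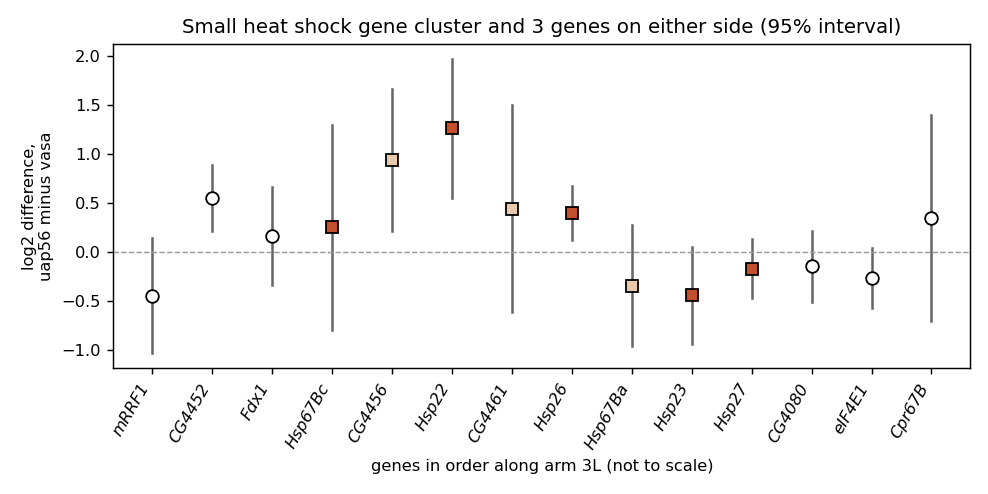
Log2 difference, uap56 minus vasa, with the 95% interval of the limma fit, for the small heat shock gene cluster (squares; dark squares are genes described here) and 3 genes on either side (open circles), in gene order along arm 3L and not to scale. The point estimates of the first 5 genes of the cluster lie above 0 and those of the last 3 below 0. The intervals of Hsp67Bc, CG4461, Hsp67Ba, Hsp23 and Hsp27 include 0, and none of the genes passed an adjusted p of 0.05. CG4456 shares its values with a row of Hsp22 that is not drawn, and is no separate measurement.

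The inducible Hsp70 genes and Hsp68, which are nearly silent without stress and rise sharply with heat, were set beside the 9 genes. On these arrays none of the 7 was at the floor of 1, and the lowest value of an Hsp70 copy was 457, for Hsp70Ba on vasa replicate 2. Among the vasa arrays the highest over the lowest was 3.33 to 4.46 for these 7 genes, against 1.16 to 3.27 for the 9, and among the uap56 arrays it was 1.76 to 2.50 for the 7, against 1.04 to 2.16 for the 9. Whether the ovaries of any array had been under stress was not tested. Hsp70Aa stood at 1455, 3582 and 2151 on the uap56 arrays, against 4113, 922 and 1204 on the vasa arrays. Vasa replicate 1 was the highest vasa array and uap56 replicate 2 the highest uap56 array for all 7 of these genes. Vasa replicate 1 stood 3.22 to 3.87-fold above the mean of the other vasa arrays across the 7. The Hsp70 copies are nearly identical, and Hsp70Bb and Hsp70Bbb held identical values, so they do not count as separate measurements, whereas Hsp68 is a separate gene (181, 318 and 268 on uap56 arrays, against 332, 99.7 and 107 on vasa arrays).

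Between the groups the inducible genes did not pass, with differences of 0.26 to 0.71, the largest for Hsp68 (0.71) and Hsp70Ba (0.51), and adjusted p of 0.466 to 0.863 in limma, and 0 of 7 had an unadjusted p under 0.05. Without vasa replicate 1 the differences were 0.89 to 1.27, with adjusted p of 0.0506 to 0.233 in limma. Over all 16 alternatives the differences ran from -0.12 to 1.27 and the adjusted p from 0.0506 to 0.999, with 0 calls. The median deviation from the group mean, over the 7 genes, was 1.28 for vasa replicate 1 and 0.60 for uap56 replicate 2 on the log2 scale, against 0.15 and 0.08 over the 9 genes described.

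Of the 9 genes, 8 were highest among the vasa arrays on replicate 1, with Hsp27 the exception. The same array was the highest of its group for 40.3% of all genes and for 63.3% of the 1012 genes with a mean intensity above 1000. After quantile normalization it was the highest for 5 of the 9 genes, for 36.0% of all genes and for 7 of the 7 inducible genes. These counts were made after the values had been seen. Without vasa replicate 1, Stip1 had a log2 difference of -0.53 (adjusted p = 0.0825 in limma), Hsp22 1.46 (adjusted p = 0.0622) and Hsp26 0.48 (adjusted p = 0.0719), and none of the 9 genes passed, with 3 at an unadjusted p under 0.05.

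**Figure D4:**
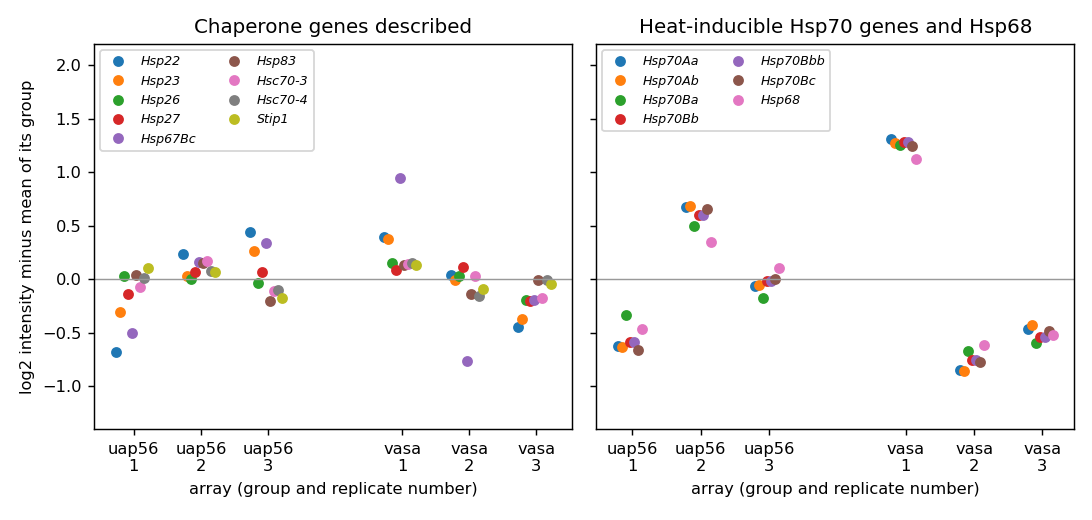
Log2 intensity of each gene on each array minus the mean of its group, for the 9 chaperone genes (left) and the 7 heat-inducible Hsp70 genes and Hsp68 (right), with uap56 arrays to the left of vasa arrays. The inducible genes stand together near 1.28 on vasa replicate 1 and near 0.60 on uap56 replicate 2, while most of the 9 genes stay close to 0 on every array.

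Other chaperone genes were read from 10 lists, in which 85 of 88 names were measured. In the limma fit 1 of the 85 passed, against 3.83% of all genes, and 14 (16.5%) had an unadjusted p under 0.05, against 18.2% of all genes. The groups did not overlap for 16 of them (18.8%), against 23.5% of all genes. The gene that passed was wus, which encodes a membrane protein with a J domain, the part that stimulates Hsp70, and is known from endocytosis in the trachea. It stood at 613, 657 and 712 on uap56 arrays, against 272, 316 and 198 on vasa arrays. The log2 difference was 1.36 ± 0.20 (SE), or 2.57-fold, with an adjusted p of 0.0112 in limma (0.00541 to 0.125 over 16 alternatives, past the threshold in 14, with the call lost under the single variance prior and without uap56 replicate 2).

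Among other Hsp90 family genes and Hsp90 co-chaperones, 0 of 12 measured genes passed in limma, with 0 at an unadjusted p under 0.05, and the list's median was -0.09. The 2 largest differences were those of Dpit47, a co-chaperone with tetratricopeptide repeats (0.46), and unc-45, a myosin chaperone that binds Hsp90 (-0.42). The immunophilin-like gene shu, whose product is needed to load Piwi proteins, was added after its values were seen. It had 243, 211 and 272 on uap56 arrays, against 380, 297 and 290 on vasa arrays, with a log2 difference of -0.41 and an adjusted p of 0.304 in limma.

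In the list of other Hsp70 family genes and exchange factors, 0 of 7 passed in limma. An unadjusted p under 0.05 was found for 3 of the 7, against 18.2% of all genes. Sil1, a nucleotide exchange factor of BiP, stood at 309, 337 and 210.2 on uap56 arrays, against 169, 142 and 138 on vasa arrays. Its log2 difference was 0.91 (adjusted p = 0.0663 in limma). Hsc70-5, the Hsp70 of mitochondria, was 1239.7, 997 and 754 on uap56 arrays, against 1756, 1448 and 1471 on vasa arrays, a difference of -0.67 (adjusted p = 0.0915 in limma). Sil1 and Hsc70-5, named for the largest differences of the list, each had groups that did not overlap, as did 23.5% of all genes.

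Of 13 J-domain genes, wus passed and 12 did not, with 4 at an unadjusted p under 0.05, against 18.2% of all genes. The groups did not overlap for 4 of the 13, all higher in uap56, against 13.5% of all genes in that direction. The next largest difference was that of shv (0.66, adjusted p = 0.0661 in limma), which encodes a relative of the J-domain partner of BiP. The list's median was 0.05. Of 14 genes of folding and stress signalling in the endoplasmic reticulum 0 passed in limma, 2 had an unadjusted p under 0.05 and the median was -0.0036. These included Atf6, a transcription factor of the unfolded protein response, with 268, 404 and 321 on uap56 arrays, against 533, 581 and 533 on vasa arrays (-0.75, adjusted p = 0.0595 in limma), and the calnexin gene Cnx14D (-0.50).

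The ring-shaped chaperonin TRiC had 0 of 8 subunit genes past the threshold in limma, 1 with an unadjusted p under 0.05 and a median of -0.07, with CCT2 (0.31) and CCT4 (0.27) largest. Prefoldin, which hands unfolded actin and tubulin to TRiC, had 0 of 6 in limma and 0 at an unadjusted p under 0.05, with a median of 0.04 and Pfdn4 (0.46) and Pfdn1 (-0.24) largest. Mitochondrial chaperones had 0 of 8 in limma, 1 with an unadjusted p under 0.05, a median of -0.14 and Hsp60D (-0.73) and CG11267, an Hsp10 gene (-0.46), largest. Hsp60D was weak, at 73.6, 45.8 and 44.6 on uap56 arrays, against 99.6, 118 and 58.4 on vasa arrays. Of the other small heat shock genes, 0 of 7 passed in limma. An unadjusted p under 0.05 was found for 2, l(2)efl and CG4456, against 18.2% of all genes. The values of CG4456 are also those of a row of Hsp22. Here l(2)efl (2.18) was weak, at 56.1, 126 and 94.2 on uap56 arrays, against 35.5, 44.0 and 4.55 on vasa arrays, and CG7409 (-1.27) was weak on uap56 arrays.

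Of the 3 measured genes listed under heat shock regulation, none passed in limma. An unadjusted p under 0.05 was found for 1 of them, against 18.2% of all genes. Hsf, which encodes heat shock factor, had 630.0, 555 and 416 on uap56 arrays, against 352, 416 and 409 on vasa arrays, and Ubqn, a ubiquilin gene, had a difference of -0.28. The groups of Hsf arrays touched, with uap56 replicate 3 just below vasa replicate 2. Its log2 difference was 0.43 (adjusted p = 0.273 in limma).

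**Figure D5:**
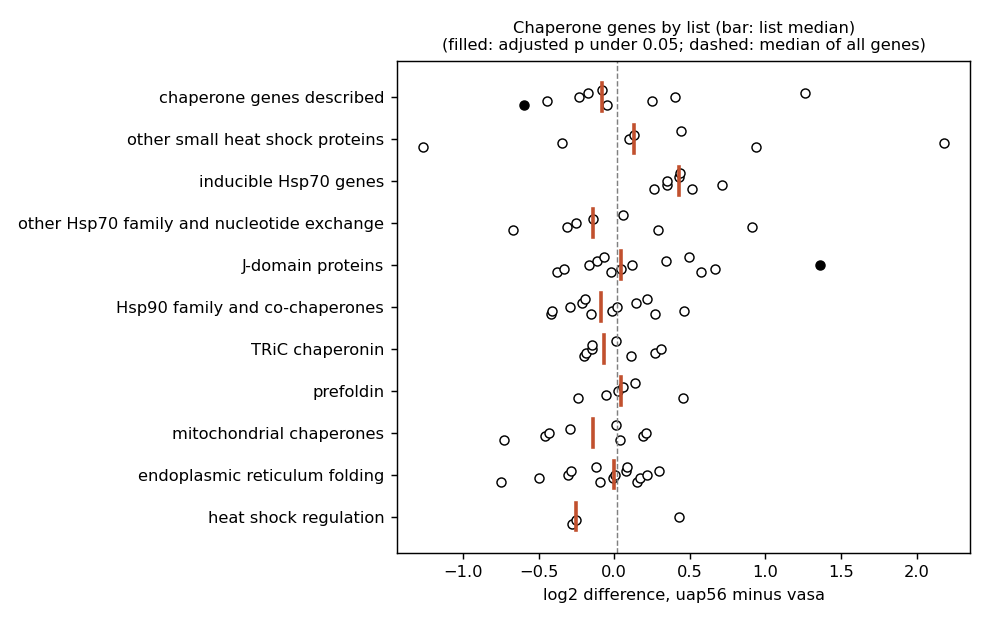
Log2 difference, uap56 minus vasa, of the 9 chaperone genes (top line) and of 85 other chaperone genes in 10 lists. Each point is a gene, red bars are list medians, filled points passed an adjusted p of 0.05 and the dashed line is the median of all genes (0.02). Stip1 and wus are the 2 filled points, and the 7 inducible Hsp70 genes lie between 0.26 and 0.71.

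Markers of other cell types were summed in the same way. Fat body markers (6 genes) summed to 386 to 595 on uap56 arrays, against 458 to 753 on vasa arrays, hemocyte markers (6 genes) to 1062 to 1307 on uap56 arrays, against 1307 to 1488 on vasa arrays, gut markers (6 genes) to 469.9 to 636 on uap56 arrays, against 460.3 to 578 on vasa arrays, and neuron markers (6 genes) to 430.4 to 513 on uap56 arrays, against 414 to 610.3 on vasa arrays. None of these genes passed in limma, with 1 fat body and 1 hemocyte gene at an unadjusted p under 0.05, and none was at the floor of 1. The largest differences were those of Fbp2 (-0.92) and Lsp1beta (-0.40) in fat body, NimC1 (1.17) and He (0.95) in hemocytes, betaTry (0.72) and Jon65Aiii (-0.36) in gut, and brp (-0.49) and para (-0.34) in neurons. NimC1 was weak, at 39.0, 39.8 and 35.8 on uap56 arrays, against 28.6, 37.2 and 4.55 on vasa arrays. He was weak too, at 40.8, 32.6 and 21.1 on uap56 arrays, against 32.6, 11.1 and 10.9 on vasa arrays. The summed hemocyte markers were lower on each uap56 array than on each vasa array, by a narrow margin. Most of each sum was srp, whose groups overlapped (875, 1064 and 829 on uap56 arrays, against 1022, 1023 and 1279 on vasa arrays). Of the 6 hemocyte genes, 4 had differences below 0 and 2 above 0. The part of hemocyte RNA in the chaperone values was not tested.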

How the data were processed

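Each array came as a table of RefSeq transcripts with 1 intensity per row, which the authors had summarised and normalized, per the labels. How they were normalized, from which probes and on which genome build is not given in the sources used here, and for arrays no depth applies, their number limiting the precision. Rows at 0 on every array (393 of 21158) were left out and log2 was taken with no pseudocount. Rows were named through RefSeq accessions (19234), through the gene name in the file (1314) or kept that name (610), and the brightest row stood for its gene, giving 13690 genes.

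The comparison, uap56 minus vasa, was made in R 4.3.3 by limma 3.58.1 (lmFit, then eBayes with intensity trend and robust hyperparameters, two-sided, Benjamini-Hochberg over all genes, threshold 0.05). The 9 genes, the lists, the markers and the choice of the trend fit were made with earlier results of these data known. Besides the 9 genes, the text names genes past the threshold and the 2 largest differences of each list, neighbouring genes past the threshold, and the 5 genes most like each of the 9 that passed. Outside this rule, and with their values seen, Hsp70Aa, Hsp70Bb, Hsp70Bbb, CG4456, CG4461, Hsp67Ba, osk, orb, otu, aub, Mhc, Act57B, bt, srp and shu were named. The names matched through a table on Release 6 of the fly genome, used for names, arms and gene order alone. Alternatives were another variance prior, normalization, replicate block, filter, pseudocount and row summary, and leaving out each array. Transposon tables were not used here.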

Additional observations from a re-analysis of the deposited data

How the results depend on the processing

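Over 16 alternatives the 9 genes kept the sign of their differences, except Hsc70-3 (-0.14 to 0.03 over the fits without 1 array, 0.01 without uap56 replicate 3 and 0.0256 without vasa replicate 1) and Hsp67Bc (-0.13 to 0.73), and their median ranged from -0.21 to -0.01. Of the 9 genes, 0 passed with the single variance prior in limma (2 at an unadjusted p under 0.05), 0 with the replicate block (3 at an unadjusted p under 0.05), 2 with genes above the 25th percentile and 2 with the pseudocount of 16, where Hsp22 joined Stip1, and 0 to 1 without 1 array, the 1 being Hsp22 without uap56 replicate 1. After quantile normalization 1 of the 9 passed in limma, Stip1. There, 6 of the 9 had an unadjusted p under 0.05, against 2699 of all 13690 genes. Of the 85 list genes, where 1 passed, the counts were 0 with the single prior in limma (10 at an unadjusted p under 0.05), 5 after quantile normalization, 4 above the 25th percentile, 2 with every row on its own and 0 to 2 without 1 array. Of all genes, where 525 passed, 2 did so with the single prior and 226 with the replicate block. Calls over all genes rose to 720 after quantile normalization, 580 with the pseudocount of 16 and 736 above the 25th percentile, where fewer genes were tested. With every row on its own, 1056 of 20765 rows passed. Without 1 array, 70 to 509 genes passed. The lowest counts were 70, 88, 90 and 202 without uap56 replicate 2, vasa replicate 2, vasa replicate 3 and uap56 replicate 3. The count was 374 without vasa replicate 1 and 509 without uap56 replicate 1. The share higher in uap56 was 64.8%, 52.2% after quantile normalization, 50% with the single prior (2 genes) and 40% to 72.7% without 1 array, the lowest without uap56 replicate 2 (28 higher, 42 lower). The deviations of same-numbered arrays correlated at -0.03 to 0.00 over genes, the labels give no pairing, and the block changed the call of Stip1 alone among the 9 (adjusted p = 0.0934 in limma). The single prior draws the spread of each gene, dim or bright, toward the same value, and leaving out an array removes samples. Why the number of calls differed between these fits was not tested.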
